A study of Mus musculus with 16 samples.

Results

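The epidermal growth factor (EGF) receptor system was described here through 10 genes. They are the 7 ligand genes Areg (amphiregulin), Ereg (epiregulin), Epgn (epigen), Hbegf (heparin-binding EGF-like growth factor), Tgfa (transforming growth factor alpha), Btc (betacellulin) and Egf, and the 3 receptor genes Egfr, Erbb2 and Erbb3. They were chosen by symbol, out of 19439 genes listed in at least 1 library, and all 10 were listed in all 16 libraries. Each library came from the ear skin of a BALB/c mouse aged 8 weeks whose ear was treated with imiquimod, a drug that gives psoriasis-like inflammation in mouse skin. During that treatment the ear received intradermal injections of LPC (lysophosphatidylcholine, a membrane lipid with a single fatty acid tail) at 10 mM in 10 µl, or of the same volume of saline as vehicle. One injection a day was planned over 6 days. The 4 groups of 4 mice were named by treatment and day of killing as vehicle day 4, vehicle day 7, LPC day 4 and LPC day 7, and the group of each library was taken from its title. All 16 mice had imiquimod, so no comparison is with untreated skin. The deposited file names give days 3 and 6 where the titles give 4 and 7.

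The EGF receptor and its relatives ERBB2 and ERBB3 are cell-surface tyrosine kinases that work in pairs. The ligands are made as membrane-bound precursors, released by metalloproteases such as ADAM17, and bind the EGF receptor, which can then pair with ERBB2, a partner without a ligand of its own, or with ERBB3, whose kinase activity is weak and which links to the PI3 kinase pathway. Betacellulin, epiregulin and HB-EGF also bind ERBB4. In the epidermis the receptor drives keratinocyte growth, migration and survival, and amphiregulin, HB-EGF, TGF alpha and epigen are products of keratinocytes themselves. Receptor signalling reaches the nucleus through RAS and the kinase ERK, which switches on both early response genes and its own inhibitors.

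In the mouse genome (build GRCm38), 4 of the 7 ligand genes are neighbours on chromosome 5: Epgn (91027517 to 91035212), Ereg (91074617 to 91093649), Areg (91139599 to 91148432) and Btc (91357261 to 91402994). This stretch of 375 kb holds 7 annotated RefSeq genes, and its 4 protein-coding genes are these 4 ligand genes.

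Promoters of Areg, Epgn and Tgfa, ligand genes that moved together between mice, are printed first. They are given as the sequence around the start of transcription from RefSeq (GRCm38.p6). Each runs from 250 bases before a start site in the RefSeq promoter table to 50 after it. For Tgfa that start site lies inside the gene's RefSeq span, downstream of its first base. Entries of the RefSeq table were used for 7 of the 10 genes, and Ereg and Erbb3 had no entry in it. The promoter of Hbegf, the remaining gene, was not examined. Capitals mark matches to the cAMP response element TGACGTCA and to the TATA box motif TATAAA, searched on both strands together with the AP-1 motif TGANTCA. All 3 printed genes are on the plus strand, Areg at chr5:91139349-91139648, Epgn at chr5:91027267-91027566 and Tgfa at chr6:86194972-86195271.
Areg: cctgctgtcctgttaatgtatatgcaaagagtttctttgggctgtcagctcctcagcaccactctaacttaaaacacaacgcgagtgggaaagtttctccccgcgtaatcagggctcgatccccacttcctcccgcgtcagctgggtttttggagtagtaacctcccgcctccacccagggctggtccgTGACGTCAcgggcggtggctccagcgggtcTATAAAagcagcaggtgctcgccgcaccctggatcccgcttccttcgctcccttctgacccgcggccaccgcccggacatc
Epgn: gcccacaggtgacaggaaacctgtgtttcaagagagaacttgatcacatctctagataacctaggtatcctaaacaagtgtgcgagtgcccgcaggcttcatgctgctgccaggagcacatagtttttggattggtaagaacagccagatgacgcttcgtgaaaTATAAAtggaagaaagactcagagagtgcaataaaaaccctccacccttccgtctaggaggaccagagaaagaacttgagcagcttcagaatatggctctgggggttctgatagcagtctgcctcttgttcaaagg
Tgfa: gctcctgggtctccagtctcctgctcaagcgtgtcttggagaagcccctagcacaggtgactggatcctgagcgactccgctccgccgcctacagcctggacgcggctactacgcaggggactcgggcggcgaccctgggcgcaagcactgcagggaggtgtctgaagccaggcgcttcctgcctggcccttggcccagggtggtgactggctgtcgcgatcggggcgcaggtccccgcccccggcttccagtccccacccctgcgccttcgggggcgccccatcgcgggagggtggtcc
The Areg promoter holds the cAMP response element 61 bases and the TATA motif 31 bases upstream of the start site. Epgn has a TATA motif 86 bases upstream, and the Tgfa window has none of the 3 motifs. Among 32851 mouse promoters of the same length, 1.79% hold the cAMP response element, 13.6% the TATA motif and 7.81% the AP-1 motif. Neither Btc, Egf, Egfr nor Erbb2 had a match, and no window of the matched genes held AP-1.

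Of the other ligand genes, Hbegf lies on chromosome 18 (36504927 to 36515805), Tgfa on chromosome 6 (86195038 to 86275744) and Egf on chromosome 3 (129677574 to 129755322). Of the receptor genes, Egfr (16752203 to 16913907) and Erbb2 (98412484 to 98437716) lie on chromosome 11 and Erbb3 on chromosome 10 (128567523 to 128589635).

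RNA was sequenced from each ear, and the deposited values are RSEM expected counts and FPKM. An expected count is an estimated read count per gene, and FPKM scales it to transcript length and library depth. Libraries held 18704197 to 20131513 expected counts. Counts are also given as CPM, which sets each library to the same total after TMM scaling. The limit that a count of 0 allows is 3 counts, which is 0.149 to 0.160 CPM. Libraries differed in tissue make-up: all 12 skeletal muscle markers were above 0 in every library, with a summed level from 270 to 38582 CPM. The tissue label held, since the 8 basal keratinocyte markers, Krt5 and Krt14 among them, summed to 11776 CPM or more in each library. The LPC day 7 group was the most mixed, with muscle scores (mean log2 CPM of the markers) of 5.34, 9.68, 4.01 and 10.24 for mice 1 to 4. In bulk tissue, fewer cells of a type and less RNA per cell cannot be told apart. The comparisons below used edgeR's quasi-likelihood test over 15782 genes, with Benjamini-Hochberg adjusted p, and a gene is said to have risen or fallen where the adjusted p was below 0.05.

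Per transcript length, Hbegf was the most abundant of the ligand genes, with a median of 38.0 FPKM over 16 libraries (10.8 to 210.7). Epgn followed at 28.3 FPKM (6.60 to 153), then Tgfa at 17.7 (7.03 to 49.3), Areg at 17.5 (1.69 to 225) and Ereg at 9.80 (4.13 to 26.1). Egf at 1.15 FPKM (0.44 to 3.65) and Btc at 1.00 (0.64 to 1.59) were scarce. The ranges of neighbouring genes in this order overlapped throughout, with a clear step only between Ereg and Egf, whose ranges did not meet. Among the receptor genes Erbb2 stood at 30.7 FPKM (21.7 to 37.4), Erbb3 at 12.9 (9.45 to 21.98) and Egfr at 12.7 (9 to 22.5). Variation between mice followed another order. The SD of log2 CPM within groups was 1.45 for Areg, 1.15 for Epgn, 0.90 for Hbegf, 0.79 for Egf, 0.67 for Ereg and 0.64 for Tgfa, but 0.39 for Btc, 0.32 for Erbb3, 0.29 for Egfr and 0.17 for Erbb2. From the lowest to the highest library Areg spanned 170-fold in CPM and Erbb2 1.61-fold.

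**Figure D1:**
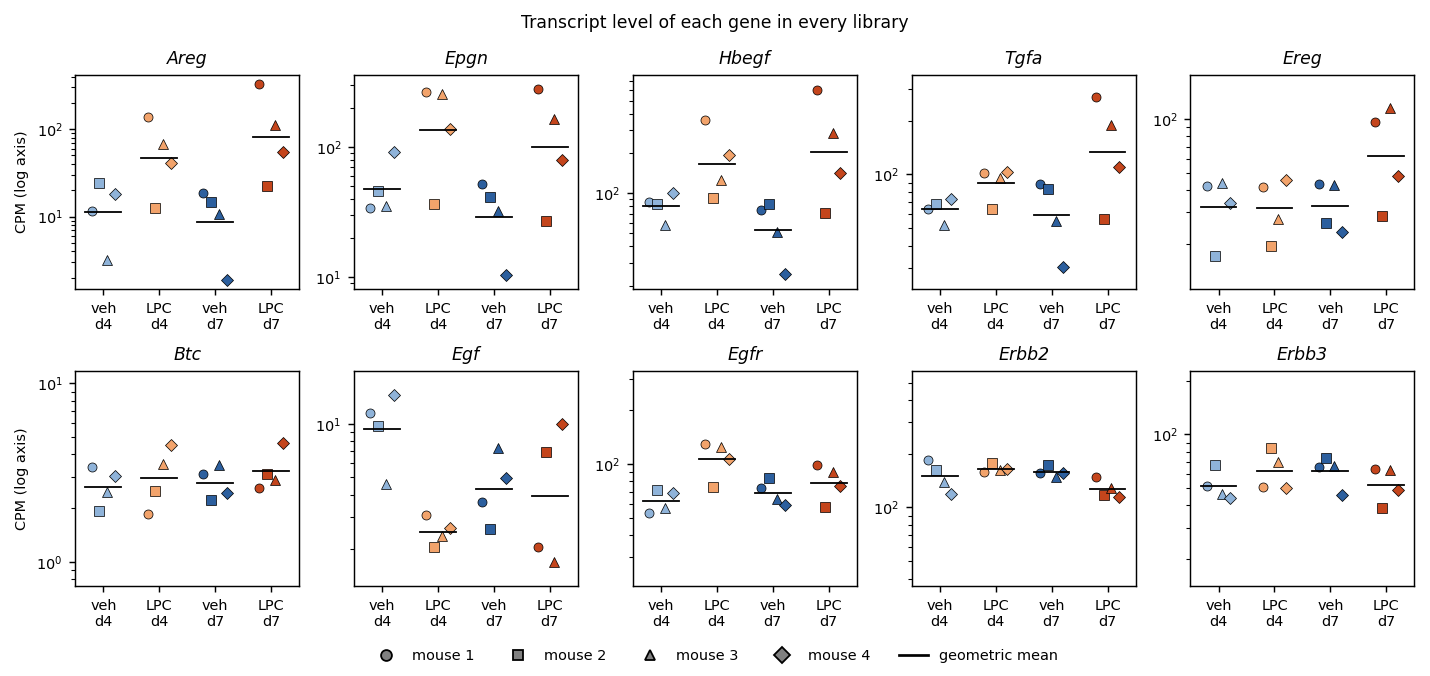
CPM of each gene (log axis, own scale per panel) in every mouse of the 4 groups (veh, vehicle; d4 and d7, day 4 and day 7); the symbols are mice and the bars geometric means. Areg, Epgn and Hbegf at both days, and Tgfa at day 7, spread widely within the LPC groups, where mouse 2 was the lowest for these 4 genes at each day, while Erbb2 spanned 1.61-fold over all 16 libraries. Mice of the same number at day 4 and day 7 are different animals.

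Areg, a ligand that only binds the EGF receptor, rose with LPC at day 7. On day 4 the vehicle mice had 11.6, 23.9, 3.19 and 18.3 CPM of Areg (mice 1 to 4) and the LPC mice 136, 12.6, 67.6 and 41.4. On day 7 the vehicle mice had 18.4, 14.6, 10.6 and 1.91 CPM and the LPC mice 324, 22.6, 111 and 55.1. All 4 LPC mice exceeded all 4 vehicle mice at day 7, as was so for 5.7% of the genes tested, and at day 4 LPC mouse 2 lay among the vehicle mice. The log2 fold change at day 7 was 3.49 ± 0.93 (SE), or 11.3-fold, with adjusted p = 0.0494. At day 4 it was 2.18 ± 0.88 (adjusted p = 0.192). The day 7 call is near the threshold: it was kept without LPC mouse 2 (adjusted p = 0.0347) or LPC mouse 4 (0.0427) and lost without any of the other 6 mice of that day, with log2 fold changes from 2.47 (without LPC mouse 1) to 3.83 and adjusted p up to 0.148. It was called in 5 of 12 other settings, over which the log2 fold change ran from 2.91 to 3.53, and lost among others with the muscle score as a covariate (adjusted p = 0.0539), without a low-count filter (0.0550) and in a fit of the day 7 groups alone (0.111).

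Hbegf, whose product binds heparan sulphate and the EGF receptor and is made by keratinocytes at wound edges, also rose at day 7. Day 4 levels were 85.5, 82.7, 57.9 and 100.005 CPM with vehicle and 355, 91.8, 125 and 194 CPM with LPC. Day 7 levels were 74.2, 82.9, 50.8 and 24.4 CPM with vehicle and 607, 70.6, 285 and 143 CPM with LPC. At both days 3 of the 4 LPC mice were above every vehicle mouse and mouse 2, a different animal at each day, was not. At day 7 the log2 fold change was 2.25 ± 0.59 (adjusted p = 0.0468) and at day 4 it was 1.23 ± 0.57 (adjusted p = 0.254). As for Areg, the day 7 call was kept only without LPC mouse 2 (adjusted p = 0.0236) or LPC mouse 4 (0.0364). Without LPC mouse 1, the highest library, the log2 fold change was 1.52 (adjusted p = 0.147). The settings that ended the Areg call ended that of Hbegf too, with adjusted p = 0.0565 for the muscle covariate and 0.140 for the day 7 groups alone.

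Areg and Hbegf were 2 of the 10 genes to rise at day 7, where 2.38% of all genes rose and 1.44% fell. The median gene had a log2 fold change of 0.02 there. The other 8 were not called there in either direction. All 10 were chosen with earlier results of these data known.

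Epgn, a ligand of the EGF receptor encoded next to Ereg, varied widely between mice of a group (within-group SD of log2 CPM 1.15). On day 4 its levels were 34.2, 45.6, 35.3 and 91.7 CPM with vehicle and 264, 36.3, 253 and 137 CPM with LPC. On day 7 they were 51.6, 41.0, 32.4 and 10.5 CPM with vehicle and 276, 27.2, 164 and 79.4 CPM with LPC. LPC mice 1, 3 and 4 were above every vehicle mouse at each day, while LPC mouse 2 was not. For Epgn the log2 fold change was 1.74 ± 0.69 at day 4 (adjusted p = 0.187) and 2.01 ± 0.70 at day 7 (adjusted p = 0.119), so neither was called.

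Tgfa, the classic keratinocyte ligand of the receptor, had 63.96, 68.4, 52.1 and 73.4 CPM with vehicle on day 4 and 102.5, 64.2, 95.1 and 103 with LPC. On day 7 it had 88.7, 82.6, 54.9 and 30.3 CPM with vehicle and 272, 56.0, 191 and 111 with LPC. Again LPC mouse 2 alone overlapped the vehicle mice at each day. In log2 terms the LPC effect was 0.50 ± 0.39 at day 4 (adjusted p = 0.506) and 1.29 ± 0.40 at day 7 (adjusted p = 0.0833). A count for Tgfa was not a whole number in 5 libraries, where reads were shared with other genes.

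Ereg, which binds the EGF receptor and ERBB4, had 41.9, 17.1, 43.6 and 33.7 CPM with vehicle and 41.7, 19.5, 27.7 and 45.4 CPM with LPC on day 4. The 2 groups covered the same range, and the log2 fold change was -0.02 ± 0.41 (95% interval -0.84 to 0.79). On day 7 it had 43.4, 26.3, 42.8 and 23.1 CPM with vehicle and 96.6, 28.6, 115 and 47.6 CPM with LPC. LPC mice 1, 3 and 4 were then above all vehicle mice. The log2 fold change was 1.08 ± 0.42 (adjusted p = 0.160).

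Btc, a ligand of both the EGF receptor and ERBB4, was low in every library, from 1.87 to 4.62 CPM and 35.0 to 89.3 expected counts. The groups overlapped at both days. Its log2 fold change with LPC was 0.20 ± 0.30 at day 4 (95% interval -0.39 to 0.79) and 0.23 ± 0.30 at day 7 (95% interval -0.36 to 0.82). Its counts were estimates in all 16 libraries, none of them whole.

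Egf, the founding ligand, which is best known from salivary gland and kidney, had its lower values in the LPC mice at day 4. It had 11.5, 9.73, 4.59 and 14.5 CPM with vehicle and 3.10, 2.05, 2.34 and 2.60 CPM with LPC, so that every LPC mouse was below every vehicle mouse, as for 8.67% of genes. The log2 fold change was -1.999 ± 0.53 and missed the threshold (adjusted p = 0.0691). On day 7 the order broke up, with 3.65, 2.58, 7.27 and 4.94 CPM with vehicle and 2.05, 6.98, 1.68 and 9.97 CPM with LPC. LPC mice 2 and 4 were high and mice 1 and 3 low, and the log2 fold change was 0.17 ± 0.51 (adjusted p = 0.905). Egf moved with the muscle markers: over 16 libraries its log2 CPM had r = 0.949 with the muscle score, and 0.933 for deviations from the group means. The muscle score was 7.30 to 11.27 in vehicle day 4 and 3.71 to 7.67 in LPC day 4, and 6.78 to 9.44 in vehicle day 7 against 4.01 to 10.24 in LPC day 7. With the muscle score as a covariate the day 4 log2 fold change of Egf was -0.17 ± 0.32. Since the muscle scores of the day 4 groups barely overlapped, this fit cannot separate muscle content from LPC at that day. The adipocyte score gave r = 0.887 with Egf. The salivary gland score gave 0.837 but was near the limit of counting, with 2 to 4 of its 5 markers above 0 in a library and a sum of at most 18.2 CPM. The part of muscle, adipose and salivary tissue in the Egf result was not tested.

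At day 4 edgeR called 0 of the 10 genes, where 0.139% of all genes were called. Of the 10, 5 had an unadjusted p below 0.05 (Areg, Epgn, Hbegf and Egfr higher and Egf lower), and DESeq2 called 2, Egf lower and Egfr higher. Among all genes 19.2% had an unadjusted p below 0.05 in that comparison.

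**Figure D2:**
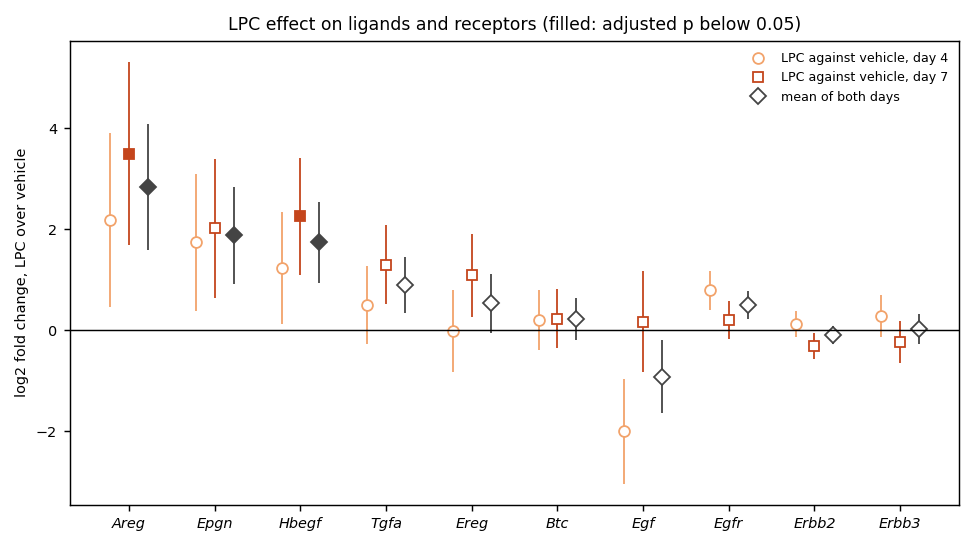
Log2 fold change of LPC over vehicle for the 10 genes at day 4, at day 7 and as the mean of both days, with 95% intervals from the edgeR fit; filled symbols have an adjusted p below 0.05. Areg and Hbegf are filled at day 7, and Areg, Epgn and Hbegf for the mean of both days. Erbb2 lies at 0.13 at day 4 and -0.32 at day 7, and Erbb3 at 0.28 and -0.24, none of them filled.

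Egfr, the receptor shared by all 7 ligands, had its higher values in the LPC mice at day 4. It had 53.3, 71.9, 56.6 and 68.7 CPM with vehicle and 129, 74.3, 125 and 106 CPM with LPC, with no overlap between the groups, as for 7.42% of genes. The log2 fold change was 0.79 ± 0.20, with adjusted p = 0.0659. DESeq2 gave adjusted p = 0.00887 and a fit of the day 4 groups alone 0.0357. On day 7 the groups overlapped, at 73.0, 83.3, 63.6 and 58.9 CPM with vehicle and 98.1, 57.6, 90.2 and 75.2 CPM with LPC, and the log2 fold change was 0.20 ± 0.20 (adjusted p = 0.629). The difference between the days, -0.59 ± 0.28, did not pass the test (adjusted p = 0.293). Egfr counts were estimates, not whole numbers, in all 16 libraries.

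Erbb2, the partner receptor without a ligand, varied little. It had 184, 161.5, 140 and 119.6 CPM with vehicle and 158, 177, 162 and 163 CPM with LPC on day 4, a log2 fold change of 0.13 ± 0.13 with overlapping groups. On day 7 it had 156, 172, 149 and 155 CPM with vehicle and 147, 117.0, 129 and 115 CPM with LPC. Here all 4 LPC mice were below all 4 vehicle mice, as for 5.16% of genes, by a log2 fold change of -0.32 ± 0.13 (adjusted p = 0.186). The same 4 mice were also all below the 4 LPC mice of day 4, as for 8.22% of genes (log2 fold change -0.38 ± 0.13, adjusted p = 0.0700). On FPKM values, where the median of all genes was itself -0.12 in both comparisons, Erbb2 was called lower in each, at -0.43 (adjusted p = 0.0461) and -0.51 (adjusted p = 0.0144).

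Erbb3, the receptor with a weak kinase, had 51.6, 67.2, 46.4 and 44.0 CPM with vehicle and 50.9, 83.5, 69.9 and 50.3 CPM with LPC on day 4, and the groups overlapped. On day 7 it had 65.6, 73.4, 66.4 and 46.0 CPM with vehicle and 63.8, 38.4, 62.9 and 48.5 CPM with LPC. They overlapped here too. For Erbb3 the log2 fold change was 0.28 ± 0.21 at day 4 (95% interval -0.14 to 0.70) and -0.24 ± 0.21 at day 7 (95% interval -0.65 to 0.18).

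Counted as transcripts per length, the 7 ligand genes summed on day 4 to 106 ± 30.7 FPKM with vehicle and 266 ± 144 with LPC (mean ± SD, n = 4). On day 7 the sums were 77.6 ± 32.2 and 317 ± 244 FPKM. The LPC groups ran from 96.3 to 444 and from 85.9 to 641 FPKM, so their lowest mice lay within the vehicle range. Hbegf took a mean share of 33.8% with vehicle and 32.1% with LPC on day 4, and of 31.1% and 32.4% on day 7. The mean share of Epgn was 28.8% ± 7.28 with vehicle and 36.2% ± 11.7 with LPC on day 4, where it exceeded that of Hbegf. On day 7 it was 24.5% ± 3.74 and 22.4% ± 3.16. The share of Areg was 11.1% ± 6.37 and 17.8% ± 5.90 in vehicle and LPC at day 4, and 10.9% ± 4.09 and 26.3% ± 5.95 at day 7. Its lowest share in LPC day 7 was 21.8%, above its highest share in vehicle day 7 of 14.1%. LPC mouse 2 of day 7, whose summed level was the lowest of its group, was thus not an exception in the share of Areg. Tgfa took 18.2% ± 1.81 in vehicle day 7 and 11.3% ± 2.76 in LPC day 7. Egf and Btc together stayed a small part in each group, at most 2.41% and 1.51% on average. These shares are given as descriptions without a test.

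**Figure D3:**
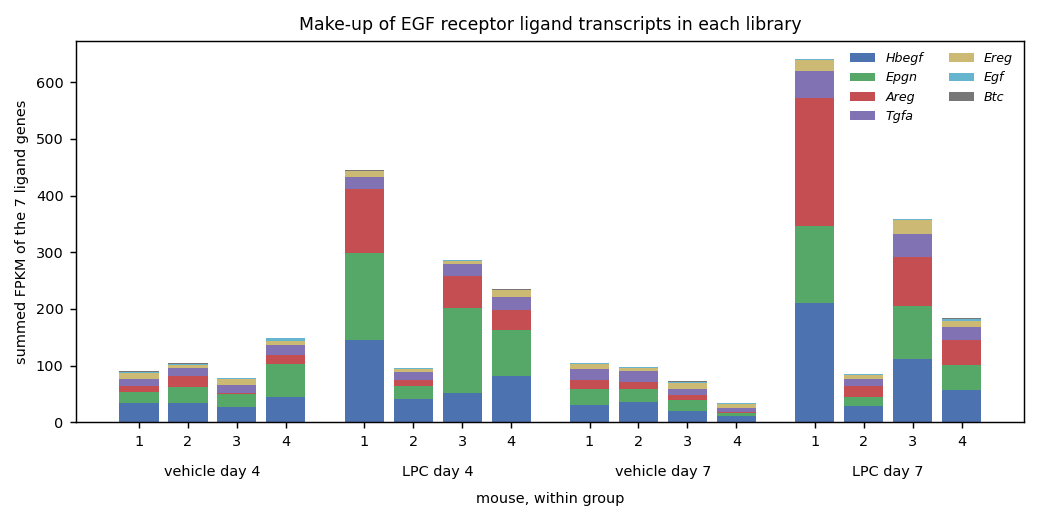
Summed FPKM of the 7 ligand genes in each mouse, divided by gene; the axis starts at 0. The sum is highest in LPC day 7 mouse 1 at 641 FPKM and lowest in vehicle day 7 mouse 4 at 34.3, and Areg (red) takes its largest mean share in LPC day 7, although its share in LPC day 4 mouse 1 (25.2%) is above those of 3 LPC day 7 mice.

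Between mice, Areg, Epgn, Hbegf and Tgfa varied together. Over 16 libraries the 6 pairs among these 4 genes had Pearson r of 0.848 to 0.939 and Spearman rho of 0.850 to 0.900 in log2 CPM. Without the 2 libraries farthest from the median of the first gene, r was 0.822 to 0.944. For deviations from the group means, which hold no difference between groups, r was 0.867 to 0.931. All 6 passed a permutation test of 100000 resamples adjusted over the 45 pairs of the 10 genes (highest adjusted p = 0.00015 for r and 0.000375 for rho). The order of mice was the same for all 4 genes in LPC day 7, from mouse 1 over 3 and 4 to 2, and vehicle day 7 mouse 4 was the lowest library of all 16 for each of them. In all, 13 of 45 pairs were called by r, 12 positive and 1 negative. Egfr followed these ligands, with r = 0.864 to Epgn and 0.762 to Areg. The negative pair was Egf and Egfr (r = -0.64, adjusted p = 0.0304; rho = -0.66; without the 2 farthest libraries -0.59), for which deviations from the group means gave r = -0.34. Ereg was looser, at r = 0.739 with Tgfa and 0.559 with its genomic neighbour Areg, and Btc, the other neighbour, had r = 0.09 with Areg. The permutations shuffled all 16 libraries without regard to group, and the share of all gene pairs with such r was not computed. The 13 called pairs are therefore not shown to be particular to these genes.

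Across 13845 genes of at least moderate level, those whose log2 CPM over the 16 libraries was most like that of Areg were Ube2j1 (r = 0.963), Mthfd2 (0.954) and Nrg1 (0.954). Nearest to Tgfa were Nfkbiz (0.956), Grhl3 (0.948) and Eef1e1 (0.941), and nearest to Egfr were Med13l (0.972), Zcchc10 (0.931) and Sfr1 (0.929). Ereg had looser neighbours, Dnajb6 (0.885), Zcchc6 (0.856) and Appbp2 (0.840). These are descriptions over libraries that share group, depth and tissue make-up, and have no test. Nrg1, neuregulin 1, is itself an ERBB ligand, for ERBB3 and ERBB4.

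The basal keratinocyte markers moved with several of these genes. Their score ran from 9.21 to 9.50 in vehicle day 4 and from 9.60 to 9.93 in LPC day 4, with no overlap, and from 9.19 to 9.84 and 8.72 to 9.79 in vehicle and LPC day 7. Over 16 libraries the basal score had r = 0.807 with Egfr, 0.587 with Hbegf and 0.584 with Tgfa. For deviations from the group means r was 0.788 with Egfr, 0.797 with Hbegf and 0.854 with Tgfa. LPC day 7 mouse 2, low in Areg, Epgn, Hbegf and Tgfa, had the lowest basal score, and also the highest of all 16 libraries for fibroblast (10.42), macrophage and dendritic cell (7.16) and endothelial markers (6.50). The suprabasal keratinocyte score went the other way at day 7, at 9.92 to 10.39 with vehicle and 8.15 to 9.14 with LPC, with no overlap, while at day 4 the groups overlapped (8.64 to 9.69 and 9.03 to 9.87). All 8 suprabasal markers were above 0 in every library, and the score had r = -0.64 with Areg and -0.68 with Hbegf. With the basal score as a covariate the day 4 log2 fold change was 0.40 ± 0.75 for Areg, -0.03 ± 0.43 for Hbegf and 0.44 ± 0.16 for Egfr, while at day 7 it was 3.53 ± 0.69 for Areg (adjusted p = 0.0123), 2.27 ± 0.38 for Hbegf (0.00822), 2.01 ± 0.52 for Epgn (0.0352) and 1.35 ± 0.23 for Tgfa (0.00822), all 4 called. This covariate was added after the data were seen. Since the basal scores of the day 4 groups did not overlap, the fit cannot separate the basal score from LPC at that day. The neutrophil score had r = 0.747 with Areg, at 2.92 to 5.82 in vehicle day 7 and 6.18 to 8.09 in LPC day 7, where the groups did not overlap; all 8 neutrophil markers were above 0 in every library. Hbegf had r = -0.80 with the mast cell score. The part of basal and suprabasal keratinocytes, fibroblasts, macrophages, endothelium, neutrophils and mast cells in these results was not tested.

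**Figure D4:**
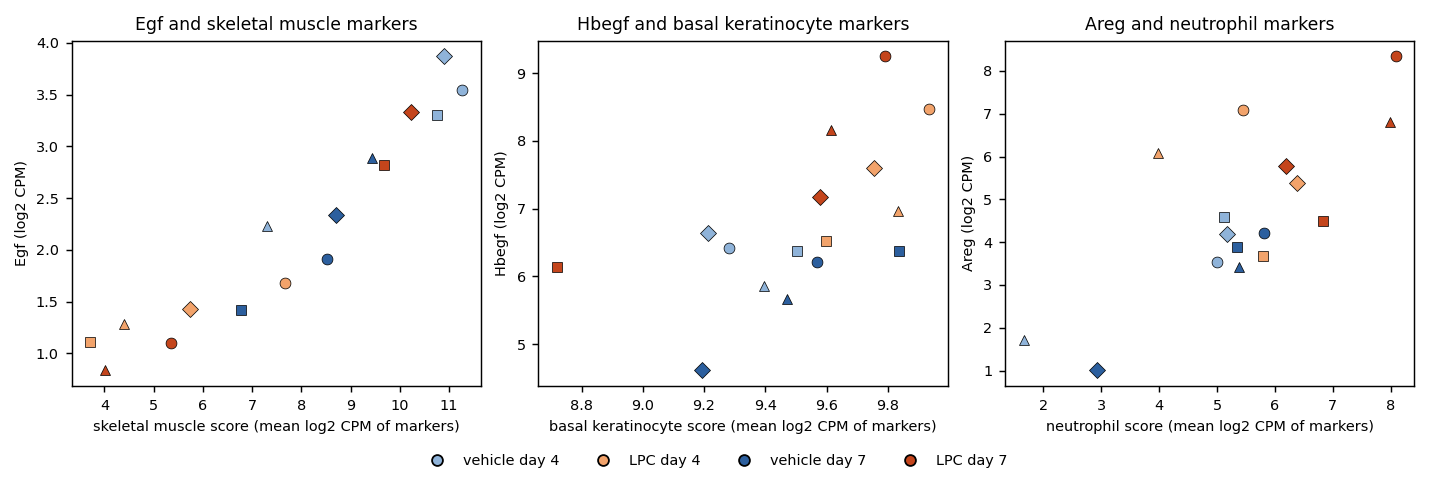
Log2 CPM of Egf, Hbegf and Areg in each library against the mean log2 CPM of the skeletal muscle, basal keratinocyte and neutrophil markers; colours are groups and symbols are mice as in the plot of CPM by mouse. Egf follows the muscle score closely (r = 0.949), Hbegf (r = 0.587) and Areg (r = 0.747) their scores less so.

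From day 4 to day 7, 0 of the 10 genes were called with vehicle, where edgeR called 0% of genes and DESeq2 223 genes, none of them among the 10. Egf alone of the 10 had an unadjusted p below 0.05, against 13.0% of all genes, at a log2 fold change of -1.13 ± 0.51 (adjusted p = 0.371). With LPC, 0 of the 10 were called by edgeR, although 11% of all genes were. Of the 10, 3 had an unadjusted p below 0.05, against 30.8% of all genes: Ereg at 1.10 ± 0.42 (adjusted p = 0.0948), Egfr at -0.44 ± 0.20 (0.145) and Erbb2. DESeq2 called Ereg and Erbb2 among 3073 genes. By edgeR the LPC effect was not called different at the later day for any of the 10, nor for any gene (0%). Of the 10, 3 had an unadjusted p below 0.05, against 16.9% of all genes, the largest difference being that of Egf at 2.17 ± 0.73 (adjusted p = 0.187), and DESeq2 called 585 genes but none of the 10. For Areg the difference was 1.32 ± 1.20 and for Hbegf 1.02 ± 0.80, so that the call at day 7 and its absence at day 4 are not shown to differ.

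The LPC effect averaged over both days, a contrast added after the data were seen, called 3 of the 10 genes higher, where 3.05% of all genes were called higher. They were Areg at 2.84 ± 0.64 (adjusted p = 0.0284), Hbegf at 1.74 ± 0.41 (0.0328) and Epgn at 1.88 ± 0.49 (0.0460). Leaving out each mouse in turn, Areg was called in 10 of 16 fits, Hbegf in 7 and Epgn in 4, with adjusted p up to 0.104. Of 11 other settings they were called in 6, 4 and 3, and all 3 were lost with the muscle, hair follicle or basal keratinocyte score as a covariate. All 3 were lost without vehicle mouse 1 or LPC mouse 1 or 4 of day 4, or vehicle mouse 3 or 4 or LPC mouse 1 of day 7. Egfr had 0.50 ± 0.14 (adjusted p = 0.0542) and Tgfa 0.90 ± 0.28 (0.0763).

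The rest of the pathway was read from lists by role, each beside the log2 fold change of the median gene, which was 0.00 and 0.02 at the earlier and the later day. These lists were chosen with earlier results of these data known. At day 4 no gene of any of the 5 lists was called by edgeR, against 0.139% of all genes. The smallest p in each list belonged to Erbb4 (-2.47 ± 0.63), Adam17, the RAS exchange factor gene Sos1 (0.56 ± 0.14), Errfi1, whose product binds and inhibits the EGF receptor (1.04 ± 0.24), and Fos (2.18 ± 0.50). Unadjusted p was below 0.05 for 1 of 4 tested neuregulin and Erbb4 genes, 1 of 9 shedding genes, 4 of 17 signal transduction genes, 7 of 16 feedback inhibitors and 8 of 12 ERK response genes, and DESeq2 called 1, 0, 2, 4 and 5 of them. Among all genes 19.2% had an unadjusted p below 0.05 in that comparison, and DESeq2 called 1104 of the 15782 tested. The median log2 fold change was 1.11 for the ERK response genes and 0.35 for the feedback inhibitors.

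Among the further ERBB ligands, Nrg1 had 15.7, 37.9, 11.2 and 23.4 CPM with vehicle and 88.5, 21.1, 47.5 and 56.6 CPM with LPC on day 4. On day 7 it had 34.0, 42.6, 23.0 and 8.22 CPM with vehicle and 153, 24.1, 94.2 and 38.0 CPM with LPC. LPC mouse 2 was within the vehicle range at both days, and LPC mouse 4 at day 7. For Nrg1 the log2 fold change was 1.28 ± 0.61 at day 4 (adjusted p = 0.270) and 1.52 ± 0.61 at day 7 (0.179). Nrg4, a ligand of ERBB4, had the smallest p of this list at day 7, at -0.80 ± 0.26 and an adjusted p just under 0.1, and again from day 4 to day 7 with LPC, at -0.76 ± 0.26 (adjusted p = 0.0719). Erbb4, the remaining ERBB receptor, was near the limit of counting, with 12.01 to 58 expected counts with vehicle and 2 to 10.4 with LPC on day 4. On day 7 it had 10 to 31 with vehicle and 2 to 13 with LPC. Averaged over both days it was lower with LPC, at -1.92 ± 0.44 (adjusted p = 0.0301), called in 8 of 16 fits that left out a mouse. With the muscle score as a covariate, the averaged value was -0.84 ± 0.34 (adjusted p = 0.204). Nrg3 had at most 6.38 counts and was not tested.

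Of 9 genes that release the ligands or control that step, edgeR called none with LPC at either day. Adam17, the main sheddase of these ligands, had a log2 fold change of 0.39 ± 0.14 at day 4 (adjusted p = 0.150) and 0.10 ± 0.14 at day 7, and 2 of them had an unadjusted p below 0.05 at day 7, against 19.7% of all genes, with DESeq2 calling 1. Adam12 had the smallest p there, at 1.51 ± 0.50 (adjusted p = 0.106). From day 4 to day 7 with LPC, 3 of 9 were called, against 11% of all genes. Adam10 rose by 0.71 and Adam12, a further ligand sheddase, by 1.98, and Timp3, an inhibitor of ADAM17, fell by 1.58 on the log2 scale. Leaving out 1 of the 8 LPC mice at a time, Adam10 was called in 6 of 8 fits (lost without day 4 mouse 2 or 3), Adam12 in 4 (lost without day 4 mouse 1, 2 or 3 or day 7 mouse 2, which alone took its log2 fold change to 1.03) and Timp3 in 1 (kept only without day 7 mouse 4). Of 17 signal transduction genes 1 was called at day 7, where 2.38% of all genes rose and 1.44% fell, so that the count is close to the background. This was the adaptor gene Grb2, at 0.61 ± 0.13 (adjusted p = 0.0231), with 80.3 ± 8.04 CPM with vehicle and 122 ± 16.9 CPM with LPC. The median of the list was 0.11, and the Grb2 call was lost without vehicle mouse 2, 3 or 4 or LPC mouse 1. Grb2 was also higher at day 7 than at day 4 with LPC, at 0.55 ± 0.13 (adjusted p = 0.0183; lost without day 4 mouse 2), and among the ERK response genes Myc, a growth regulator, fell by 0.89 ± 0.20 there (adjusted p = 0.0164; lost without day 4 mouse 3). No feedback inhibitor was called there, and the receptor pathway antagonist gene Spry4 had the smallest p, at 0.82 ± 0.27 (adjusted p = 0.0628).

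Of 12 genes that ERK signalling is known to switch on, 5 rose with LPC at day 7 and none fell, against 2.38% and 1.44% of all genes, with a list median of 1.55. Fos, an AP-1 subunit, went from 37.4 ± 16.9 to 353 ± 307 CPM, a log2 fold change of 3.24 ± 0.52 (adjusted p = 0.0110). Ier3 (2.57 ± 0.59), the urokinase receptor gene Plaur (2.52 ± 0.56), Phlda1 (2.45 ± 0.65) and the endothelial growth factor gene Vegfa (1.75 ± 0.39) were the others, with adjusted p from 0.0277 to 0.0491. Of 16 feedback inhibitors 3 rose and none fell, with a list median of 0.21: Spry4 at 1.54 ± 0.28 (adjusted p = 0.0134) and the ERK phosphatase genes Dusp5 at 1.74 ± 0.41 (0.0311) and Dusp6 at 1.51 ± 0.37 (0.0389). Spry4 had 5.90 ± 1.68 CPM with vehicle and 17.2 ± 5.26 with LPC, and all 4 LPC mice, at 13.0 CPM or more, were above the vehicle mice, at 7.94 or less. Spry4 and Fos were called whichever mouse of day 7 was left out, and both were lost in a fit of the day 7 groups alone, which called no gene of either list, while Ier3, Plaur, Phlda1, Vegfa, Dusp5 and Dusp6 were each called in 2 to 4 of the 8 fits that left out a mouse, and each was lost without LPC mouse 1 or vehicle mouse 2, 3 or 4. Without LPC mouse 1 the log2 fold change of Ier3 was 1.63, that of Phlda1 1.55 and that of Dusp6 1.01. Of 12 other settings, Vegfa was called in 11, Plaur in 10, Dusp5 in 8, Ier3 and Dusp6 in 7 and Phlda1 in 5. These genes respond to many signals besides the EGF receptor. Their lists were chosen with earlier results of these data known, so setting their counts against the shares of all genes is not an independent comparison. Averaged over both days, 8 of 12 ERK response genes and 4 of 16 feedback inhibitors rose, against 3.05% of all genes, among them Errfi1 at 0.93 ± 0.17 (adjusted p = 0.0142). Leaving out a mouse, 3 to 8 and 1 to 6 genes of these lists were called on average over both days, and 1 to 8 and 0 to 8 under other settings, the fewest with the muscle covariate.

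**Figure D5:**
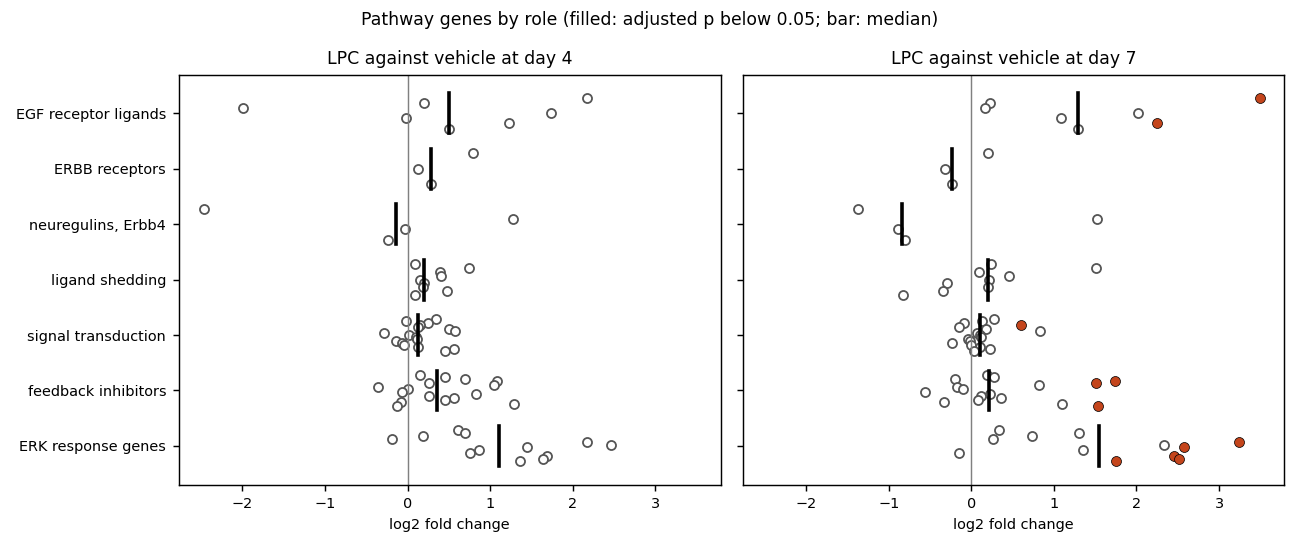
Effect of LPC (log2 fold change over vehicle, left panel day 4, right panel day 7) for each tested gene of the pathway, grouped by role; filled points have an adjusted p below 0.05 and bars are list medians. At day 4 no point is filled, and at day 7 the filled points are 2 ligand, 1 signal transduction, 3 feedback and 5 ERK response genes.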

How the data were processed

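RNA was extracted from skin and sequenced on a BGISEQ-500 instrument, and reads were aligned with Bowtie2 to GRCm38 and quantified by RSEM, per the labels' protocols and the submitters' processing notes. No source used here gives their versions. Per gene, the deposited files give expected counts and FPKM values made by the authors. Where a file did not list a gene, it was set to 0 for that library. Expected counts were rounded, which for the member genes touched Tgfa, Btc and Egfr alone, and no source used here states a strand setting. Genes were kept by filterByExpr (15782 tested, 3657 removed), scaled by TMM and fitted with edgeR 4.0.16 in R 4.3.3 by the quasi-likelihood test, with a mean per group over all 16 libraries (12 residual degrees of freedom, biological coefficient of variation 35.0%). P-values were adjusted by Benjamini-Hochberg over all genes tested. The 5 planned comparisons were LPC against vehicle at each day, day 7 against day 4 for each treatment, and the difference of the LPC effect. The labels' added criterion of a change above 2-fold was not applied. SE values come from the fold change and its F statistic, and log2 CPM used a prior count of 2. The member genes and lists were chosen with earlier results of these data known. Named genes are all 10 members, up to 4 called genes with the smallest p of each list and comparison (otherwise the 1 with the smallest p), and the 3 most alike genes for Areg, Ereg, Tgfa and Egfr. In the text this was applied to both LPC comparisons and to day 7 against day 4 with LPC, and Phlda1, Nrg3 and the values of Nrg1 were added after they were seen. Alternatives were median-of-ratios size factors, no and stricter low-count filters, DESeq2 1.42.0, only the groups compared, muscle, hair follicle and (added later) basal keratinocyte scores as covariates, a replicate block, limma 3.58.1 on log2(FPKM + 0.1) and log2(FPKM + 1), and leaving out each mouse. The edgeR fit was run on simulated counts with known fold changes for LPC against vehicle at each day. The other comparisons and the alternative settings were not simulated. No pair of libraries of a group agreed within sampling noise, the lowest mean chi-square per gene being 16.6. Replicates are separate mice, per the series' design text. Floors cover counting error only. Protein sequences and sequences of chromosome 18 were not used here.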

Additional observations from a re-analysis of the deposited data

How the results depend on the processing

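Of 700 recomputed log2 fold changes of the 10 genes under other settings, 621 kept their direction and their side of the threshold and 26 changed sign, and leaving out a mouse 547 of 640 did and 45 changed sign. No called fold change reversed, and no reversed value was called. The cause of the changes was not tested.

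Counts of genes called differed between settings. DESeq2 called 1104 genes at day 4, 1448 at day 7, 1792 on average over both days, 3073 from day 4 to 7 with LPC, 223 with vehicle and 585 for the difference of the LPC effect, and 2, 4, 5 and 2 of the 10 genes in the first 4 of these. A fit of only the groups compared called 1333, 45 and 1100 genes at day 4, at day 7 and between days with LPC, and 2 and 0 of the 10 genes with LPC at day 4 and day 7. The muscle covariate gave 0, 1159, 268 and 1030 genes at day 4, at day 7, on average and between days with LPC, and 0 of the 10 genes at day 7 and on average. The basal keratinocyte covariate gave 0 genes at day 4, 1159 at day 7, 189 on average, 1 between days with vehicle and 12 for the difference, and 4, 0 and 2 of the 10 at day 7, on average and between days with LPC. The hair follicle covariate gave 0 at day 4, 350 on average, 901 between days with LPC and 52 for the difference, and 0 of the 10 on average. FPKM + 0.1 gave 38 genes at day 4. Of the 10 genes it called 1 lower at day 7, 1 higher on average and 1 lower between days with LPC, so Areg and Hbegf were not called at day 7. Without a filter on these values there were 47 genes at day 4, 387 on average and 2 for the difference, with 0, 0 and 1 of the 10 at day 7, on average and between days with LPC. FPKM + 1 gave 40 at day 4 and 1 for the difference. Of the 10 genes it called 1 lower at day 7, 1 higher on average and 1 lower between days with LPC. No low-count filter gave 8 genes at day 4 and 0 of the 10 at day 7. Median-of-ratios factors gave 1 gene for the difference.

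Mouse numbers did not pair the libraries: correlations of deviations of same-numbered libraries ran from -0.60 to 0.54, with 9 of 24 over 0.1. With the replicate block 2, 351, 276 and 901 genes were called at day 4, at day 7, on average and between days with LPC, and 0 of the 10 genes at day 7 and on average. Under the block, Ereg reversed to 0.042 at day 4 and 0.053 between days with vehicle, and Egf to -0.027 at day 7.

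Other reversals were of values near 0 or under a covariate. With the muscle covariate Tgfa was -0.054 and Erbb3 -0.15 at day 4, Erbb3 -0.24 and Egf 0.041 on average, Egf -0.061 and Btc -0.073 between days with LPC, and Btc -0.24 for the difference. With the basal keratinocyte covariate Hbegf was -0.026 and Tgfa -0.36 at day 4, Epgn 0.45 between days with LPC, Erbb3 -0.077 on average and Btc -0.088 for the difference. The hair follicle covariate gave Btc -0.14 between days with vehicle. FPKM + 0.1, with or without a filter, gave Egf -0.18 at day 7, Erbb3 -0.057 on average and Btc -0.024 for the difference. FPKM + 1 gave Egf -0.038, Erbb3 -0.052, Btc -0.017 and, between days with LPC, Btc -0.0044.

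Leaving out a mouse, genes called ran from 0 to 683 at day 4, 111 to 697 at day 7, 142 to 1598 on average, 518 to 2207 between days with LPC, 0 to 205 with vehicle and 0 to 214 for the difference. Of the 10 genes 0 to 1, 0 to 3, 0 to 6 and 0 to 1 were called in the first 4. Sign changed for Btc at day 4 (-0.039 to 0.38), Ereg at day 4 (-0.24 to 0.17), Egf at day 7 (-0.36 to 0.48) and Erbb3 on average (-0.055 to 0.096). Between days with LPC it changed for Areg (-0.034 to 1.66), Hbegf (-0.20 to 1.01), Epgn (-0.93 to 0.0016) and Btc (-0.12 to 0.33). With vehicle it changed for Areg (-0.67 to 0.047), Tgfa (-0.20 to 0.23), Ereg (-0.23 to 0.14), Btc (-0.074 to 0.18) and Erbb2 (-0.034 to 0.17). For the difference it changed for Epgn (-0.32 to 0.62) and Btc (-0.18 to 0.27).

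Of the 45 pairs of genes, 13 were called on log2 CPM, 10 on log2(FPKM + 0.1) and 13 for deviations from the group means. Depth limits Btc, at 35.0 to 89.3 counts, and Egf, at 31 to 295.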
